A study of Mus musculus with 15 samples.

Results

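The genes described here are the mouse splicing factor genes of 6 families, taken by symbol from the gene list of the deposited count matrices: every symbol starting with Srsf, Hnrnp, Sf3a, Sf3b, Snrp or U2af, without those ending in ps or os. The rule gave 55 of 32285 genes, with 11 Srsf, 20 Hnrnp, 3 Sf3a, 6 Sf3b, 12 Snrp and 3 U2af members. All 55 are annotated as protein-coding in GENCODE vM21 (GRCm38) and lie on 18 chromosomes. The rule uses symbols alone, and it was set with earlier results of these data known, among them that of U2af1. They were followed through spermatogenesis and across the treatment groups in single-cell RNA-seq of 15 testis libraries, each from 1 testis of 1 male DBA/2J mouse. Treated mice (T) received JQ1, a bromodomain inhibitor that acts on the testis protein BRDT and on its relatives, at 50 mg/kg daily by intraperitoneal injection for 3 wk and were taken at the end of dosing, at 10 wk of age. VC-T mice received vehicle on that schedule and were also 10 wk old. Recovery mice (R) had the same JQ1 course and were taken 6 wk after the last dose, at 16 wk of age, with vehicle controls of that age (VC-R). Untreated controls (UC) were 15 wk old and received no injections. JQ1, vehicle injection and age therefore cannot be told apart in T against UC, whereas T and VC-T were matched in age and in injections. Each group held 3 mice. JQ1 was given systemically and also binds the ubiquitously expressed relatives of BRDT, so a change in a germ cell class is not specific to BRDT by design.

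Introns are removed by the spliceosome, which is assembled stepwise on each intron from small nuclear ribonucleoprotein particles (snRNPs). The U2AF heterodimer recognizes the end of the intron, with U2AF1 on the terminal AG and U2AF2 on the polypyrimidine tract, and the SF3A and SF3B complexes are parts of the U2 snRNP, which then binds at the branch point. Snrp genes encode Sm ring proteins and particle-specific proteins of the U1 and U2 snRNPs. SR proteins (Srsf) mostly promote exon inclusion through exonic enhancers, and hnRNP proteins (Hnrnp) coat nascent RNA and often act in opposition to them. The testis has one of the richest repertoires of alternative splicing among tissues, and transcription stops in elongating spermatids as histones are replaced, so that RNA of late spermatids was made earlier.

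Promoter sequence was read for the 4 members whose RNA differed between T and UC spermatids with the smallest adjusted p when cells were matched by stage, since BRDT and its relatives bind acetylated chromatin at promoters. The 150 bases before the RefSeq transcription start (GRCm38.p6) are given 5′ to 3′ on the strand of the gene, in lower case, with capitals, on either strand, for GGGCGG, for the ETS core CCGGAA, for the box called CCAAT and for the CRE-like motif TGACGTC. U2af1 lies on chromosome 17 (chr17:31647081-31658892, minus strand, ENSMUSG00000061613), Snrpf on chromosome 10 (chr10:93583029-93589706, minus strand), Snrpd2 on chromosome 7 (chr7:19149722-19153542, plus strand) and Sf3b6 on chromosome 12 (chr12:4817544-4827659, plus strand). The windows shown lie at chr17:31658755-31658904, chr10:93589659-93589808, chr7:19149688-19149837 and chr12:4817458-4817607. RefSeq places these starts inside the gene spans of GENCODE, which are drawn to the outermost transcript, so that 138, 48, 116 and 64 of the 150 bases lie within the annotated gene. For U2af1 RefSeq lists 2 starts, and the window of the more downstream one is shown.
U2af1: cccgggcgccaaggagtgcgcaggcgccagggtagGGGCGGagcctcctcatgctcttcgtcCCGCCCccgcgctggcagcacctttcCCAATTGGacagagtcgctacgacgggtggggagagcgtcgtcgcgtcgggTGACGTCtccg
Snrpf: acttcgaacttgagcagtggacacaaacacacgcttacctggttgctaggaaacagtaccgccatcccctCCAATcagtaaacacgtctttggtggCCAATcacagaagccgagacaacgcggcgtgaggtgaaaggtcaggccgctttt
Snrpd2: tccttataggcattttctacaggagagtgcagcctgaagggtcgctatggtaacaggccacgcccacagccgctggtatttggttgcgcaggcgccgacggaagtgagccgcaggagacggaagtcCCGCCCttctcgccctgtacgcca
Sf3b6: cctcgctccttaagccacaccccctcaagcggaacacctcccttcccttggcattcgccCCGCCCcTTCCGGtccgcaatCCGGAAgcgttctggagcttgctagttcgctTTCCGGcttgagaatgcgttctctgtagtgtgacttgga
In U2af1 the letters CCAATTGG hold CCAAT on both strands, overlapping.

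Of the 55 members, 48 had a RefSeq promoter window of 300 bases, from 250 before to 50 after the start. These windows were rich in CG dinucleotides, with a median of 25.5 against 7 over 27025 promoters, and in GC, with a median of 60.7% against 52.7%. GGGCGG, the core of Sp1 family sites, was found in 66.7% of member promoters and 35.6% of all promoters. CCGGAA, the core of ETS family sites, was found in 50% and 15.1%. CCAAT was found in 45.8% and 37.8%, TATAAA in 10.4% and 14.1%, CACGTG in 10.4% and 7.09%, and TGACGTC in 8.33% and 3.19%. All motifs were searched on both strands, matches are letters and not bound sites, and no binding data were analysed here.

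Total UMIs per library ran from 9673587 to 98724982, and 2430 to 12744 cells per library were kept, 72362 in all. Library pairs shared 0 to 46 cell barcodes, at most 0.554% of the smaller library. Cells were clustered without the 55 members, and clusters were named spermatogonia-like, spermatocyte-like, spermatid-like or spermatozoa-like from fixed marker genes. VC-T 1 had no spermatozoa-like cell and stood apart from VC-T 2 and VC-T 3. It was left out of the comparisons, with its values given for some members. The study left the same library out. VC-T 2, which was kept, also stood apart: 75.0% of its spermatids lay in clusters with a median under 2000 UMIs, against 8.36% in VC-T 3 and 5.37 to 7.91% in T. T held only 7 spermatozoa-like cells in all, so spermatozoa were not compared at the end of dosing. UMIs were summed per library and class, levels are counts per 1000000 UMIs of the class (CPM), and tests were run over all genes with edgeR. Each sample was 1 mouse, so p-values measure the spread between mice. The chemistry reads 1 tag at the 3′ end of each captured transcript, so levels of different genes were compared without a length correction.

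The splicing factor genes took a smaller share of the RNA at each step of germ cell development. In the 8 control libraries (UC 1 to 3, VC-T 2 and 3, VC-R 1 to 3), the 55 members made up 1.37% ± 0.118 (SD, n = 8) of UMIs in spermatogonia-like cells, 0.808% ± 0.0568 in spermatocyte-like cells, 0.355% ± 0.0137 in spermatid-like cells and 0.161% ± 0.00934 in spermatozoa-like cells. The ranges over the libraries, 1.10 to 1.47%, 0.726 to 0.887%, 0.340 to 0.385% and 0.147 to 0.174%, did not overlap. Members reached their highest mean level in spermatogonia-like cells for 41 of 55 (74.5%, against 45.5% of 19630 genes at or above 1 CPM), in spermatocyte-like cells for 11 (20%, against 22.3%), in spermatid-like cells for 1 (23.3% of all genes) and in spermatozoa-like cells for 2 (8.93% of all genes). The step from spermatocytes to spermatids stood furthest from the other genes, with 47 members (85.5%) lower in spermatids against 54.6% of all genes, and a median log2 ratio of -1.65 against -0.28. From spermatogonia to spermatocytes 42 members (76.4%, against 62.7%) were lower, and from spermatids to spermatozoa 53 (96.4%, against 82.4%). These are shares of the RNA in a class, and fewer transcripts per cell cannot be told apart from more RNA of other genes.

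**Figure D1:**
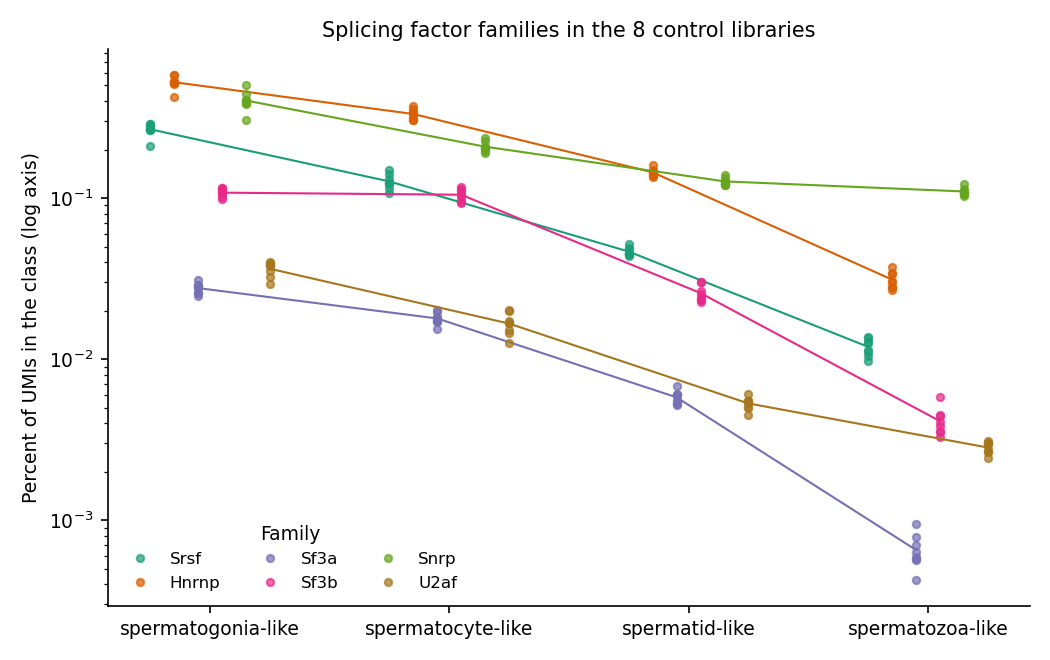
Percent of UMIs taken by each of the 6 families (log axis) in the 4 germ cell classes; each point is 1 of 8 control libraries and lines join the means. The Hnrnp, Srsf, Sf3a, Sf3b and U2af families were lower by a factor of 10 or more in spermatozoa-like than in spermatogonia-like cells, and the Snrp family went from 0.404% to 0.110%.

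The families differed in their course. Hnrnp genes went from 0.524% of UMIs in spermatogonia-like cells to 0.333, 0.145 and 0.0312% in spermatocyte-, spermatid- and spermatozoa-like cells, and Srsf genes from 0.268% to 0.127, 0.0466 and 0.0119%. Sf3a genes went from 0.0276% to 0.000654% and U2af genes from 0.0364% to 0.00283%. Sf3b genes kept their share from spermatogonia (0.108%) to spermatocytes (0.105%) and were at 0.0257% in spermatids. Snrp genes, at 0.404% in spermatogonia, were at 0.127% in spermatids and 0.110% in spermatozoa, and the level in spermatozoa was mostly Snrpd2.

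Snrpd2, which encodes the Sm ring protein SmD2, was the member with the highest level in spermatid- and spermatozoa-like cells. Its level in the controls was 656 ± 91.3 CPM in spermatogonia, 480 ± 35.7 in spermatocytes, 595 ± 29.1 in spermatids and 952 ± 68.7 in spermatozoa (SD, n = 8). In spermatozoa the lowest, median and highest libraries were at 885, 935 and 1098 CPM, all above the highest spermatid value of 658. Snrpf and Snrpg, which encode Sm ring proteins F and G, went the other way, from 458 ± 67.3 and 869 ± 195 CPM in spermatogonia to 9.24 ± 1.97 and 17.1 ± 5.48 in spermatozoa. Snrpn, an imprinted gene for an Sm protein related to SmB, was low throughout, at 8.50 ± 2.08 CPM in spermatids and 18.6 ± 4.74 in spermatozoa, ranges that overlap; it overlaps Snurf on the same strand, and reads of the pair may not be separable.

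Some members peaked in meiosis or after it. Sf3b4, a U2 snRNP protein, was at 46.8 ± 10.4 CPM in spermatogonia, 72.5 ± 5.34 in spermatocytes and 87.9 ± 8.79 in spermatids, with spermatid libraries between 70.3 and 96.4 and overlapping the spermatocyte range of 61.5 to 77.5. Sf3b5, of the same complex, was highest in spermatocytes at 223 ± 22.5 CPM and at 26.5 ± 4.09 in spermatids. Snrpc, a U1 snRNP protein, was highest in spermatocytes at 410 ± 24.6 CPM, against 224 ± 30.4 in spermatogonia. Hnrnpf, which binds G-rich RNA, kept a like level of 495 ± 47.9, 551 ± 28.5 and 519 ± 47.8 CPM in spermatogonia, spermatocytes and spermatids. Hnrnph2, its X-linked relative, was at 45.9 ± 13.9 CPM in spermatogonia, 2.60 ± 0.76 in spermatocytes and 13.1 ± 1.29 in spermatids. Hnrnpa1 was at 241 ± 58.2 CPM in spermatogonia and 18.5 ± 2.10 in spermatocytes. Srsf12 was the lowest member, with means between 0.205 and 1.99 CPM in the 4 classes.

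Among the U2AF genes, U2af1 and U2af2 were far lower after meiosis, and U2af1l4 was not. U2af1 had lowest, median and highest control values of 161, 247 and 270 CPM in spermatogonia, 79.2, 110 and 146 in spermatocytes, 7.33, 9.49 and 12.2 in spermatids, and 0.734, 2.24 and 2.93 in spermatozoa. No 2 of these ranges overlap. U2af2 had means of 78.8 ± 11.0, 22.2 ± 2.63, 4.79 ± 1.28 and 1.24 ± 0.553 CPM in the same order. U2af1l4, which encodes a shorter U2AF1-like protein, had 55.1 ± 6.95, 30.6 ± 3.15, 38.7 ± 4.06 and 25.0 ± 2.41 CPM, so that in spermatids it stood above U2af1. U2af1l4 overlaps another annotated gene on its strand.

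**Figure D2:**
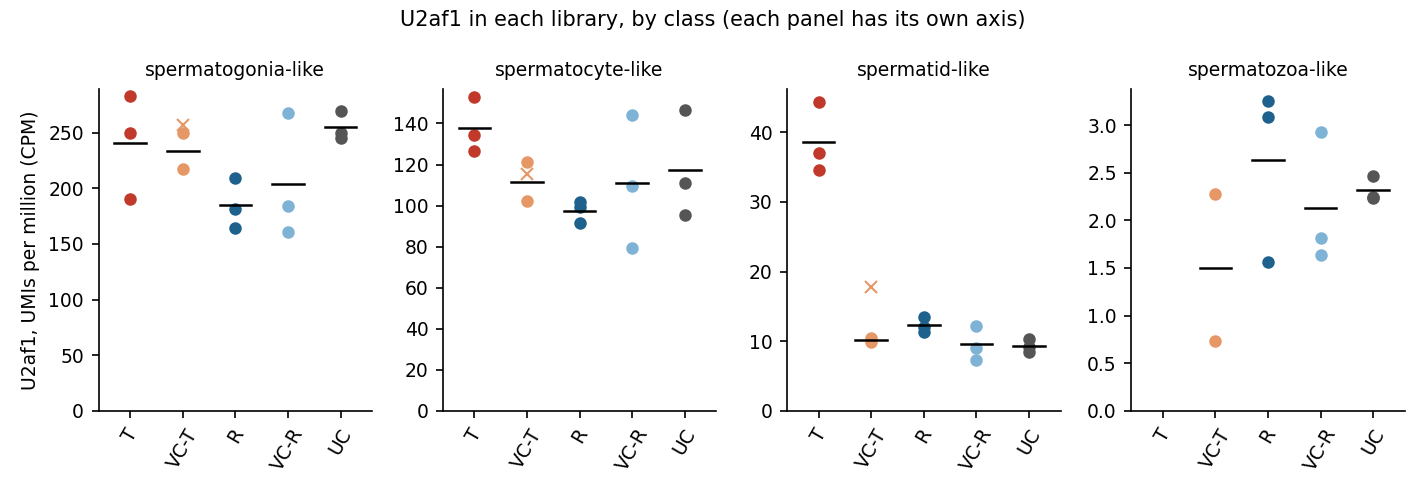
U2af1 level in CPM for each library, with 1 panel per germ cell class and separate axes; the bar is the group mean and the cross is VC-T 1, which is not in the mean. In spermatid-like cells the T libraries lie between 34.6 and 44.4 CPM, above all other libraries, and in spermatocyte- and spermatogonia-like cells T overlaps the controls.

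U2af1 was the member with the clearest change at the end of JQ1 dosing, and the change was in spermatids. In spermatid-like cells U2af1 was at 34.6, 44.4 and 37.0 CPM in T 1 to 3 and at 10.3, 9.10 and 8.45 CPM in UC 1 to 3. The 2 groups did not overlap, and the counts behind these values were 302, 246 and 105 UMIs in T and 30, 34 and 44 in UC. VC-T 2 and VC-T 3 were at 10.4 and 9.87 CPM, close to UC, and VC-T 1 was at 17.8. U2af1 was 3.57-fold higher in T than in UC (log2 1.84 ± 0.16 SE, 95% interval 1.52 to 2.16, adjusted p = 6.6e-07) and 3.17-fold higher than in VC-T (log2 1.66 ± 0.18, adjusted p = 6.8e-05). With VC-T 1 kept, the difference from VC-T was 1.43 with an adjusted p of 0.12. U2af2, the partner in the heterodimer, was at 6.65, 5.05 and 5.29 CPM in T and 5.17, 2.68 and 6.34 in UC, and its difference was 0.03 ± 0.29 (adjusted p = 0.93). U2af1l4 was at 53.7, 52.3 and 52.2 CPM in T and 39.3, 37.7 and 46.3 in UC; its difference was 0.12 ± 0.11 (adjusted p = 0.38) with TMM scaling, and 0.35 (adjusted p = 0.016) when library totals were the only scaling.

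Across all members in spermatids, more were higher than lower in T. The 55 genes took 0.466 to 0.473% of spermatid UMIs in T and 0.345 to 0.385% in UC, a ratio of 1.30, while VC-T 2 and 3 were at 0.347 and 0.354% and VC-T 1 at 0.418%. Of 53 members with enough counts, 28 were higher and 8 lower in T than in UC at an adjusted p under 0.05, and 17 were not called. The change reached many other genes too: of all genes tested in this comparison 48.6% were called, 22.2% higher and 26.4% lower, and their median log2 difference was 0.05 against 0.35 for the members. Against VC-T, 25 of 54 members were higher and 5 lower, where 40.5% of all genes were called, 15.8% higher and 24.7% lower, and the medians were 0.37 for members and 0.02 for all genes. Both comparisons share the T libraries. With VC-T 1 kept, no member and no other gene was called against VC-T in spermatids. With the thresholds of the study, which add an absolute log2 difference over 1, 4 members passed against UC (U2af1, Sf3b6, Hnrnpl and Hnrnpm) with 16.5% of all genes, and 6 against VC-T (U2af1, Sf3b6 and Hnrnpl higher, Srsf1, Srsf6 and Snrpn lower) with 19.1%. Srsf12, and in T against UC also Hnrnpul2, had too few counts to be tested in spermatids.

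The direction of small differences depends on the scaling. TMM factors were 1.08 to 1.10 in T and 0.890 to 0.952 in UC spermatids, and with library totals as the only scaling the median of all genes moved by 0.24 in T against UC, to 0.28, 61.4% of all genes were called, and 39 members were higher and 5 lower. Against VC-T the same setting moved the median by 0.26, with 50% of all genes called and 35 members higher and 4 lower. Hnrnpf, lower in T by TMM scaling, then turned to 0.06 (adjusted p = 0.45), and Srsf2 and Srsf5 lost their calls. U2af1, Snrpf, Sf3b6, Snrpd2, Srsf1, Srsf6, Srsf11 and Snrpn kept their direction.

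**Figure D3:**
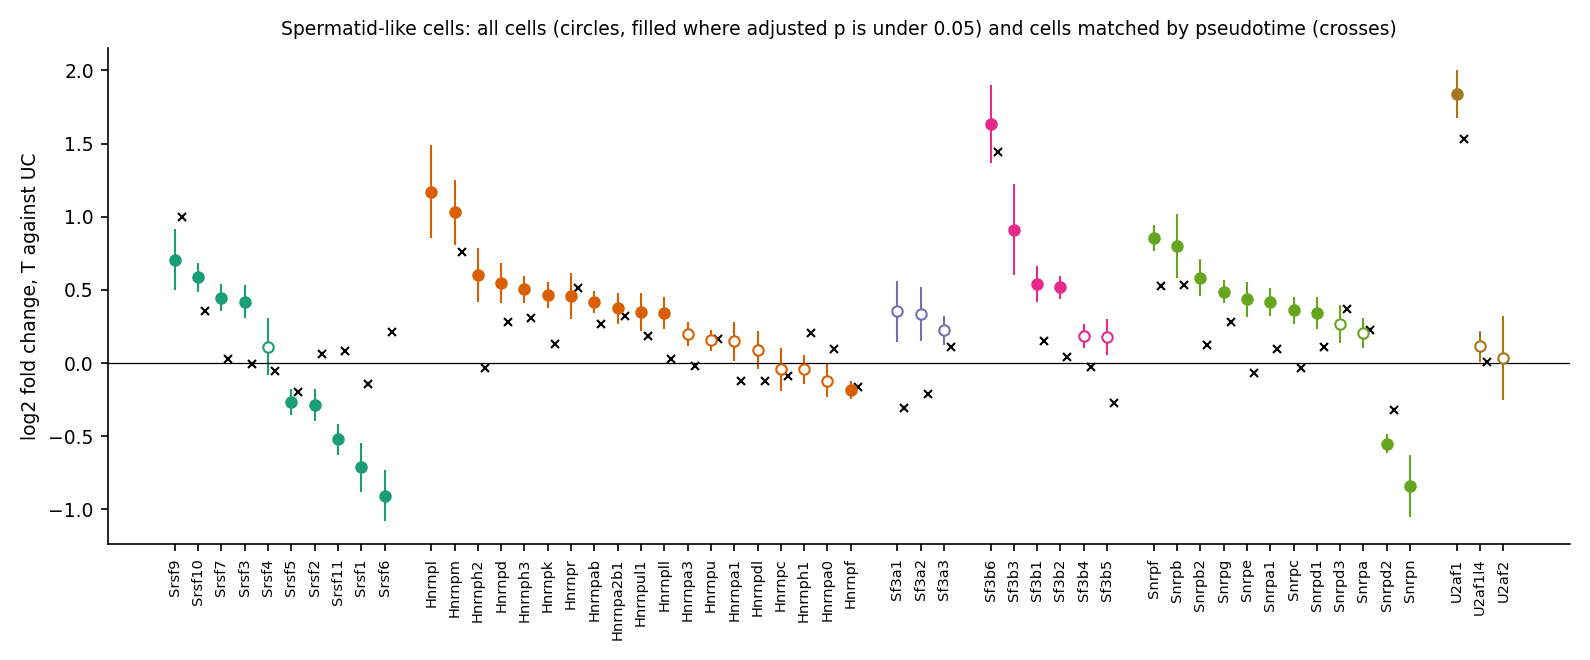
Log2 difference of T from UC in spermatid-like cells for each member tested, with SE bars; filled points have an adjusted p under 0.05 and black crosses give the difference when cells are matched by pseudotime. Genes stand side by side by family. U2af1 and Sf3b6 are highest, at 1.84 and 1.63, and Srsf6 and Snrpn lowest, at -0.91 and -0.84.

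Genes of the U2 snRNP were among the higher members. Of 6 Sf3b genes 4 were higher in T and none lower, and of 3 Sf3a genes none was called against UC. In that comparison 22.2% of all genes were higher and 26.4% lower. Sf3b6, whose protein p14 contacts the branch point adenosine, was at 8.94, 11.9 and 10.2 CPM in T and 3.79, 1.87 and 2.88 in UC. The T libraries were all above UC, from 78, 66 and 29 UMIs against 11, 7 and 15. The fold was 3.10 (log2 1.63 ± 0.27, adjusted p = 0.00019), and VC-T 2 and 3 were at 5.33 and 2.30 CPM (log2 1.08 ± 0.31, adjusted p = 0.021; not called without T 2). Sf3b2, a large scaffold protein of the complex, was at 181, 185 and 181 CPM in T and 100, 103 and 120 in UC (log2 0.52 ± 0.08, adjusted p = 0.00011). Sf3b3 rose by 0.91 (adjusted p = 0.027) from only 5, 6 and 12 UMIs in UC, with VC-T 1 within the T range. Sf3b1, which holds the branch helix, rose by 0.54 (adjusted p = 0.0023). Sf3a1, Sf3a2 and Sf3a3 differed by 0.35, 0.34 and 0.22 against UC, with adjusted p of 0.18, 0.14 and 0.074. Against VC-T, where 15.8% of all genes were higher, 2 of these 3 genes were called higher, Sf3a1 by 0.87 (adjusted p = 0.017). For Sf3a1, VC-T 1, which is not in the test, lay within the T range.

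Sm and snRNP genes moved in both directions, with 8 of 12 higher and 2 lower in T than in UC. Of all genes 22.2% were higher and 26.4% lower there. Snrpf was at 213, 210 and 238 CPM in T, and 105, 88.6 and 115 in UC, with VC-T 2 and 3 at 89.1 and 129. It was 1.81-fold higher than in UC (log2 0.85 ± 0.09, adjusted p = 2.8e-06) and higher than in VC-T by 0.74 (adjusted p = 0.0066). Snrpf overlaps Ccdc38 and another gene on the opposite strand, and whether strand was used in counting is not given in the sources used here. Snrpg was at 287, 272 and 268 CPM in T and 166, 147 and 187 in UC (log2 0.49 ± 0.08, adjusted p = 0.00018). Snrpd2 went down, from 578, 607 and 590 CPM in UC to 486, 474 and 474 in T, with VC-T 2 and 3 at 594 and 658 and VC-T 1 at 429. No T library reached the lowest of UC. It was 1.46-fold lower than in UC (log2 -0.55 ± 0.06, adjusted p = 7.7e-06) and lower than in VC-T by the same test (log2 -0.66 ± 0.11, adjusted p = 0.00085). Snrpn was at 5.62, 5.41 and 5.64 CPM in T and 8.28, 6.96 and 9.79 in UC, 1.79-fold lower (adjusted p = 0.0048). VC-T 1 lay below every T library for Snrpn. Among the genes for proteins particular to the U1 and U2 particles, Snrpc rose by 0.36 (adjusted p = 0.005), Snrpa1 by 0.42 (adjusted p = 0.0029) and Snrpb2 by 0.58 (adjusted p = 0.0016).

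The SR protein genes held most of the lower members. Of 10 tested, 4 were higher in T than in UC and 5 lower, beside 22.2% and 26.4% of all genes. Srsf6 was at 10.8, 10.3 and 7.76 CPM in T, with VC-T 1 within the T range. It was at 15.9, 14.5 and 17.1 in UC, and 19.2 and 13.8 in VC-T 2 and 3. It was 1.87-fold lower than in UC (log2 -0.91 ± 0.17, adjusted p = 0.0007) and 2.02-fold lower than in VC-T (adjusted p = 0.0038), a direction that turned when cells were matched by stage (log2 0.21 against UC). Srsf1, the founding SR protein, was at 15.1, 13.3 and 16.2 CPM in T, with VC-T 1 again within the T range. It was at 20.7, 23.6 and 17.9 in UC, and 26.3 and 24.6 in VC-T 2 and 3. It was 1.64-fold lower than in UC (adjusted p = 0.0029) and 2.07-fold lower than in VC-T (adjusted p = 0.00065). Srsf11 fell by 0.52 on the log2 scale against UC (adjusted p = 0.0013). Srsf5 and Srsf2 fell by 0.26 and 0.28 (adjusted p = 0.023 and 0.042), calls that library totals end. When cells were matched by stage, Srsf1, Srsf2 and Srsf11 were not called, and the direction also turned for Srsf11 and Srsf2. Srsf10, which represses splicing when dephosphorylated, was higher, at 87.0, 89.3 and 97.7 CPM in T and 50.4, 53.8 and 49.7 in UC (log2 0.59 ± 0.10, adjusted p = 0.00021). Srsf3, Srsf7 and Srsf9 rose by 0.42, 0.45 and 0.71, with adjusted p of 0.006, 0.0013 and 0.013.

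Of 19 hnRNP genes tested against UC, 11 were higher in T and 1, Hnrnpf, lower, where 22.2% of all genes were higher and 26.4% lower. Hnrnpm was at 17.2, 12.8 and 17.3 CPM in T, with VC-T 1 within the T range. It was at 8.62, 4.82 and 6.53 in UC, and 11.7 and 7.81 in VC-T 2 and 3. It was 2.04-fold higher than in UC (log2 1.03 ± 0.22, adjusted p = 0.0016). Hnrnpl, which binds CA repeats, was at 8.25, 5.41 and 4.58 CPM in T and 2.07, 2.68 and 2.50 in UC. Its UC values rested on 6, 10 and 13 UMIs, and the difference was 2.25-fold (adjusted p = 0.0074, not called without T 1). For Hnrnpl, too, VC-T 1 lay within the T range. Hnrnpab, Hnrnpk and Hnrnph3 rose by 0.42, 0.46 and 0.50 with adjusted p of 0.00045, 0.00067 and 0.00052. Against VC-T, 13 of 20 hnRNP genes were higher and none lower, where 15.8% of all genes were higher and 24.7% lower.

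Stage within the spermatid class moved with these differences, since the spermatid-like cells of T lay earlier on the path than those of UC. Summed levels of the 7 spermatocyte markers, all detected, were 752 to 793 CPM in T spermatids, 375 to 431 in UC and 359 to 448 in VC-T 2 and 3. Those of the 5 spermatozoa markers were 2978 to 3328 CPM in T and 5105 to 5994 in UC, and those of the 6 spermatid markers were 3056 to 3072 and 2962 to 3316. Median pseudotime of the spermatids was 0.403 to 0.417 in T, 0.488 to 0.504 in UC and 0.406 in VC-T 1. Median UMIs per spermatid were 2254.5 to 3216 in T and 4050 to 5465.5 in UC, and cells were not matched on depth. With only cells of at least 2000 UMIs, 27 members were higher and 8 lower in T than in UC, where 49.9% of all genes were called. The part of depth in the differences was otherwise not tested. When spermatids were divided into 4 intervals of pseudotime, each with about the same number of UC cells, T had 50.6, 35.5, 10.8 and 3.10% of its cells in them and UC 24.3, 25.5, 25.1 and 25.1%.

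Most members change along this path without JQ1. In all 3 VC-R libraries, whose cells are in neither of the 2 comparisons above, 26 of the 28 members higher in T were lower in the last than in the first interval, 1 was higher (Srsf9) and 1 was mixed (Hnrnpl). U2af1 went there from 19.1 to 3.34 CPM, Snrpf from 225 to 19.2, Sf3b2 from 213 to 18.1 and Sf3b6 from 6.65 to 0.221. Of the 8 members lower in T, 6 were higher in the last interval in all 3 VC-R libraries: Snrpd2 from 487 to 764 CPM, Snrpn from 6.02 to 14.8, Srsf1 from 9.70 to 34.9, Srsf11 from 47.5 to 99.2, Srsf2 from 40.2 to 66.2 and Srsf6 from 1.24 to 24.3. Hnrnpf and Srsf5 were lower there, as were 14 of the 17 members tested and not called. How many of all genes went the same way was not computed, so these counts stand without a background.

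With cells matched by pseudotime bin, to 345 spermatids per library, 9 of 49 members tested were called between T and UC, 8 higher and 1 lower, where 21.1% of all genes were called, and the median of the members was 0.09. U2af1 remained higher by 1.53 (adjusted p = 1.7e-06), Snrpf by 0.53 (adjusted p = 5e-05), Sf3b6 by 1.44 (adjusted p = 0.006), Srsf9 by 1.00 (adjusted p = 0.022) and Snrpg by 0.28 (adjusted p = 0.024). Snrpd2 was lower by the same test (log2 -0.32, adjusted p = 0.00036). Hnrnpab, Hnrnpr and Srsf10 were the other members called. Srsf1, Srsf2, Srsf6 and Srsf11 were not called with matched cells, and the sign turned for Srsf6 (log2 0.21), Srsf11 (0.083) and Srsf2 (0.063). Hnrnpl, Sf3b3, Snrpn and U2af2 had too few counts to be tested there. The difference in the share of all members fell from 0.108 to 0.0457 percentage points. Against VC-T, 6 members were called with 434 matched cells per library, 5 higher and 1 lower, where 12.1% of all genes were called, and U2af1 was higher by 1.42 (adjusted p = 0.00087).

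Within the intervals, which are described without a test, U2af1 was above UC at each stage with enough cells. In the first interval the T libraries were at 41.0, 43.5 and 51.6 CPM and UC at 11.9, 21.6 and 24.3, a ratio of means of 2.36. In the second interval T was at 33.3, 36.0 and 41.9 CPM and UC at 8.98, 10.5 and 11.3, a ratio of 3.61. In the third interval T was at 17.6, 23.5 and 25.3 CPM and UC at 4.69, 5.11 and 9.45, a ratio of 3.45. In the last interval, with 27 to 72 cells per T library, T was at 0, 17.3 and 20.8 CPM and overlapped UC at 3.76 to 5.45. In both groups U2af1 was lower in each later interval up to the third, and the T level of the third interval was near that of UC in the first.

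Snrpf had means of 256, 215, 122 and 94.5 CPM in the intervals of T and 185, 157, 71.3 and 17.1 in those of UC, with no overlap in any. The last interval held 27 to 72 cells per T library and 120 to 226 per UC library. Snrpd2 was highest there in UC and lowest there in T. Its means were 489, 480, 437 and 317 CPM in T and 519, 513, 525 and 762 in UC, with T libraries at 270 to 352 and UC libraries at 732 to 804 in the last interval and overlap in the first and second. For Srsf1 the ranges of T and UC overlapped in every interval, with means of 13.9, 13.8, 21.1 and 39.4 CPM in T and 9.39, 10.8, 19.4 and 38.1 in UC. Srsf6 had 5.75, 10.8, 14.4 and 55.5 CPM in T and 5.53, 4.86, 16.8 and 32.1 in UC. Its T mean was below that of UC in the third interval, where the libraries overlapped, and above it in the other intervals. The share of UMIs from all 55 members was 0.522, 0.447, 0.372 and 0.380% in T and 0.492, 0.410, 0.327 and 0.257% in UC.

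**Figure D4:**
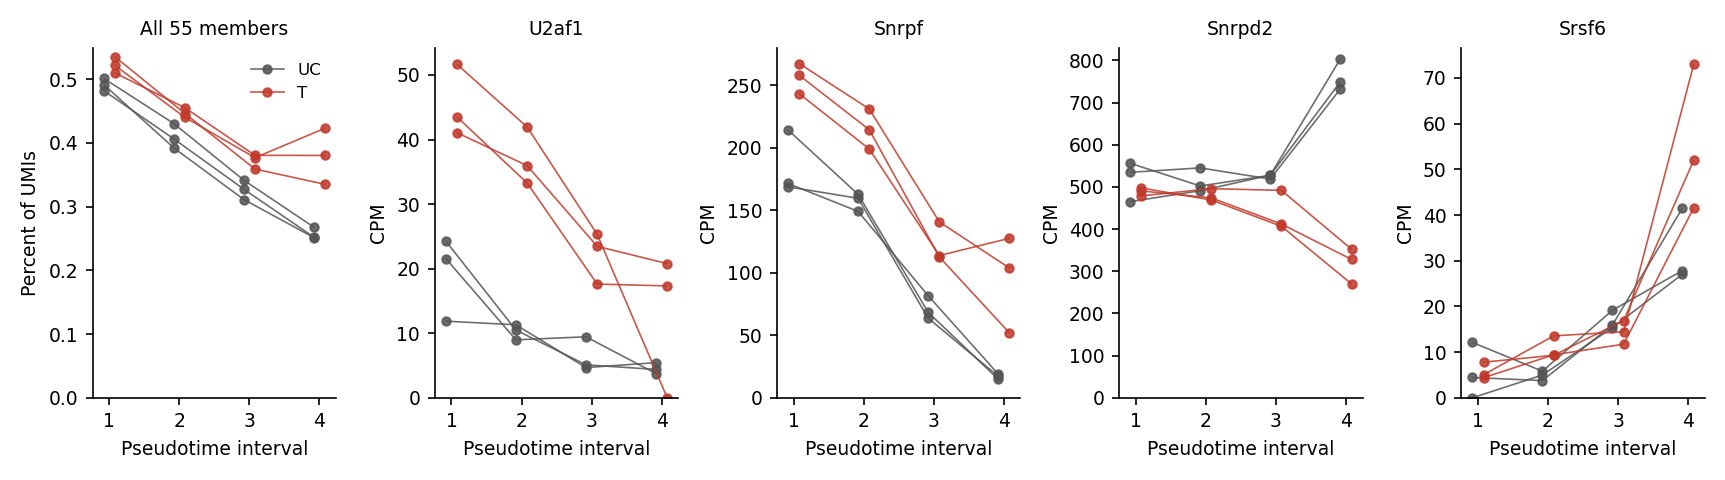
Share of UMIs from the 55 members (percent) and levels of U2af1, Snrpf, Snrpd2 and Srsf6 (CPM) in the 4 pseudotime intervals of spermatid-like cells, with 1 line per library, T in red and UC in grey. The T lines for U2af1 lie above UC in the first 3 intervals, and those for Snrpd2 lie below UC in the last, at 270 to 352 against 732 to 804 CPM. The last interval holds 27 to 72 cells per T library.

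Before the spermatid stage few members differed at the end of dosing. In spermatocyte-like cells 1 of 55 members was called between T and UC, where 2.73% of all genes were called, and 10 members had an unadjusted p under 0.05. Srsf5 was at 114, 114 and 117 CPM in T and 134, 153 and 149 in UC, 1.37-fold lower (log2 -0.45 ± 0.06, adjusted p = 0.024), a call that ended without T 1, T 2, T 3 or UC 3 (adjusted p = 0.12, 0.14, 0.15 and 0.075) and with library totals (adjusted p = 0.055). VC-T 2 and 3 were at 142 and 148 CPM, again above T (log2 -0.47 ± 0.08, adjusted p = 0.008). Against VC-T 4 members were called, 2 higher and 2 lower, where 7.33% of all genes were, and with library totals 6 were higher and 1 lower, where 7.6% were. Srsf12 was at 4.93, 4.96 and 7.28 CPM in T, 1.23 and 1.10 in VC-T 2 and 3, 2.64 in VC-T 1 and 2.59, 1.71 and 1.45 in UC. It was 4.28-fold higher than in VC-T (log2 2.10 ± 0.38, adjusted p = 0.0089), not called without VC-T 2 or VC-T 3 (adjusted p = 0.054 and 0.077), and differed from UC by 1.42 ± 0.33 (adjusted p = 0.071). Hnrnpl was higher than in VC-T by 0.37 (adjusted p = 0.039), and Snrpb2 was lower (log2 -0.44 ± 0.11, adjusted p = 0.037). U2af1 was at 126, 134 and 153 CPM in T spermatocytes and 95.4, 146 and 111 in UC, which overlap. With VC-T 1 kept, no member was called in spermatocytes or spermatids against VC-T, and no other gene was called in spermatids.

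In spermatogonia-like cells edgeR called none of 53 members in T against UC, where 6.9% of all genes were called, or against VC-T, where 10.3% were. DESeq2 also called none. By edgeR 1 and 5 members had an unadjusted p under 0.05, and by DESeq2 0 and 3. U2af1 was at 190, 250 and 283 CPM in T and 270, 249 and 245 in UC.

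The difference between the stages was tested itself. The change from UC to T differed between spermatids and spermatocytes for 6 of 55 members, 2 higher and 4 lower in spermatids, where 3.83% of all genes differed, and 21 members had an unadjusted p under 0.05. U2af1 (1.49 ± 0.20, adjusted p = 0.014) and Sf3b6 (1.49 ± 0.27, adjusted p = 0.031) had the larger rise in spermatids, and Srsf6, Srsf1, Srsf11 and Snrpd2 the larger fall. All 6 calls ended when T 1, T 2, T 3 or UC 3 was left out, with 0 members called; U2af1 was then at log2 1.42 to 1.56 with adjusted p of 0.054, 0.105, 0.075 and 0.094. With library totals 12 members were higher and none lower, where 7.23% of all genes were called and their median moved by 0.32, and with matched cells 1 was called, U2af1 (1.42, adjusted p = 0.0014).

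Other spliceosome genes outside the 6 families came from lists written with earlier results of these data known. Those called in T spermatids were mostly higher too. All spermatids were used here, without matching by pseudotime, and those of T lay earlier on the path. For the 55 members, matching took the calls against UC from 36 to 9. Of 81 tested genes of a core spliceosome list, 39 were higher and 1 lower than in UC, with a median log2 difference of 0.41, where 22.2% of all genes were higher and 26.4% lower. Of 82 tested against VC-T, 33 were higher and none lower, where 15.8% of all genes were higher and 24.7% lower. Of 52 tested genes of a list of other splicing regulators, 34 were higher and 2 lower than in UC, with a median of 0.55, and 18 of 53 were higher and none lower than in VC-T. Of the 8 tested kinases of SR proteins, 3 were higher and 2 lower than in UC. Named after their values were seen, the kinases Srpk2 (log2 -0.85, adjusted p = 2.3e-06) and Clk4 (log2 -0.95, adjusted p = 1.6e-05) were lower in T, and Prpf4b (0.87, adjusted p = 0.0017), Clk1 (0.71, adjusted p = 0.018) and Clk2 (0.67, adjusted p = 0.018) higher. Snrnp70, of the U1 snRNP, was higher by 0.81 (adjusted p = 6.7e-05), Sf1, which binds the branch point beside U2AF, by 0.36 (adjusted p = 0.0024), and Tra2b, an SR-like activator, by 0.62 (adjusted p = 0.00012). Against VC-T, Srpk2, Clk4, Prpf4b, Clk2, Snrnp70 and Sf1 were called in the same direction, while Tra2b differed by 0.24 (adjusted p = 0.12) and Clk1 by 0.63 (adjusted p = 0.08). In spermatocytes no gene of the 3 lists was called between T and UC, where 2.73% of all genes were, and in spermatogonia, where 6.9% were, 1 core gene was higher and 2 lower.

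After 6 wk of recovery U2af1 was not called against UC or VC-R, and R was not tested against T. In spermatids U2af1 was at 11.3, 12.0 and 13.5 CPM in R, 12.2, 9.07 and 7.33 in VC-R, and 10.3, 9.10 and 8.45 in UC. R 1 and R 2 lay below VC-R 1. The difference was 0.23 ± 0.18 from UC (95% interval -0.12 to 0.58, adjusted p = 0.31) and 0.21 ± 0.18 from VC-R (95% interval -0.15 to 0.56, adjusted p = 0.39). Snrpf was at 116, 114 and 115 CPM in R, within the VC-R range of 94.7 to 127. Snrpd2 was at 511, 484 and 498 CPM in R, below all UC and VC-R libraries, and lower than in UC by the test (log2 -0.46, adjusted p = 6e-05). Sf3b6 was at 3.81, 4.69 and 7.95 CPM in R and 1.83 to 3.08 in VC-R.

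In all, 12 of 54 members were higher and 15 lower in R than in UC spermatids, where 41.3% of all genes were called, 21.6% higher and 19.6% lower, and 16 were higher and 6 lower than in VC-R, where 35.1% were called, 20.3% higher and 14.8% lower. With library totals these counts were 18 and 4, where 39.4% of all genes were called, and 17 and 1, where 33% were, and the median of all genes moved by 0.21 and 0.20. These calls went together with cells of few UMIs. Clusters with a median under 2000 UMIs held 68.3 to 86.6% of R spermatids, against 10.1 to 19.8% in UC and 2.78 to 24.3% in VC-R, and summed Sertoli cell markers in spermatids were 85.5 to 102 CPM in R and 32.7 to 53.2 in UC. With those clusters left out, a choice made after seeing the data, edgeR called none of 52 members against UC, where 1.17% of all genes were called, and none of 53 against VC-R, where 0% were. In T against UC the same setting gave 36 members, where 51.4% of all genes were called, and in T against VC-T, where VC-T 2 lost most of its spermatids, 38, where 52.8% were.

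With all cells kept, members past the study thresholds were Sf3b3 against UC, where 7.42% of all genes passed, and Hnrnpm, Sf3b3 and Hnrnpul2 against VC-R, where 7.5% did. Sf3b3, which sits beside SF3B1 in the U2 snRNP, was at 5.08, 4.47 and 7.28 CPM in R, 1.72, 1.61 and 2.30 in UC and 2.71, 1.63 and 0.917 in VC-R. It was 2.62-fold higher than in UC (log2 1.39 ± 0.31, adjusted p = 0.00066) and higher than in VC-R by 1.58 ± 0.34 (adjusted p = 0.002). Hnrnpm was at 10.9, 9.59 and 18.9 CPM in R and 6.09, 3.63 and 5.50 in VC-R (log2 1.32 ± 0.28, adjusted p = 0.0016), and against UC it was not called without R 3. Without R 3, 11 members were called against UC and 9 against VC-R, and without VC-R 2 also 9. The share of all genes called in these smaller fits is not given here. Hnrnpf, Sf3b4 and U2af1l4 were lower than in UC by log2 -0.48 (adjusted p = 3.7e-05), -0.53 (adjusted p = 0.00014) and -0.44 (adjusted p = 0.0021).

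**Figure D5:**
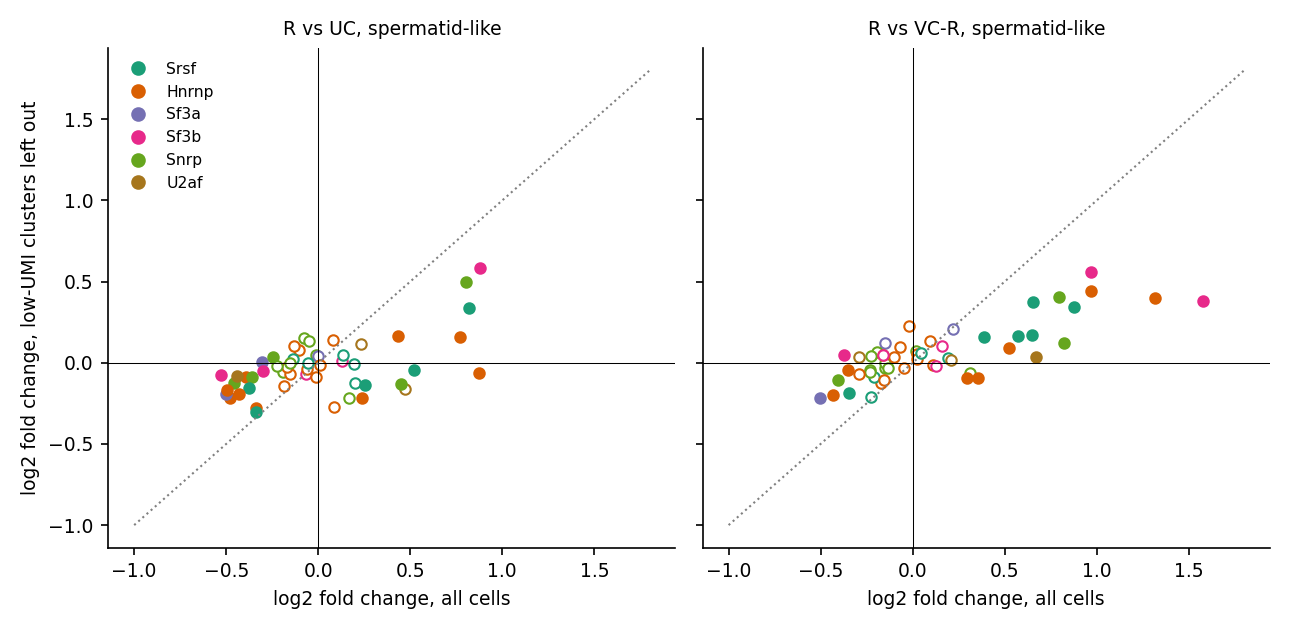
Log2 difference in spermatid-like cells for each member with all cells (horizontal) and with the low-UMI clusters left out (vertical), for R against UC and R against VC-R; filled points were called with all cells and the dotted line is equality. In all cells 27 and 22 members were called, and with the clusters left out none was.

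In the other classes of recovered mice few members differed. In spermatogonia 2 of 53 were lower in R than in UC, where 3.7% of all genes were called. Srsf3, an SR protein that is also an mRNA export adaptor, was at 441, 374 and 434 CPM in R and 595, 676 and 596 in UC (log2 -0.58 ± 0.13, adjusted p = 0.013). Hnrnpa3 was at 249, 254 and 253 CPM in R and 367, 453 and 329 in UC (log2 -0.59 ± 0.15, adjusted p = 0.024). Neither group pair overlaps, but no member was called without R 2 or UC 2, and edgeR called none in R against VC-R, where 0% of all genes were called and 4 members had an unadjusted p under 0.05 (DESeq2 none). In spermatocytes edgeR called no member against UC, where 0.0072% of all genes were called, or against VC-R, where 0% were; 17 and 5 members had an unadjusted p under 0.05. DESeq2 called 12 against UC, all lower, where it called 4.47% of all genes, and none against VC-R.

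Spermatozoa-like cells were present in R. There 3 of 52 members were called against UC, 2 higher and 1 lower, where 6.68% of all genes were called. Snrpg was at 27.8, 25.5 and 28.7 CPM in R and 19.9, 12.9 and 21.5 in UC (log2 0.54 ± 0.12, adjusted p = 0.0021). Hnrnpa1 was at 5.62, 6.21 and 5.94 CPM in R and 4.31, 3.27 and 3.44 in UC (log2 0.66 ± 0.20, adjusted p = 0.032). Snrpn was at 18.4, 15.6 and 19.4 CPM in R, at 22.6 and 26.0 in UC 1 and UC 2, and just above the highest R library in UC 3 (log2 -0.40 ± 0.12, adjusted p = 0.03). All 3 calls ended without UC 2. Against VC-R edgeR and DESeq2 called none. By edgeR 0% of all genes were called, and 10 members had an unadjusted p under 0.05.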

How the data were processed

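Testis cells of 15 mice, 3 in each of 5 groups taken from the sample labels, were profiled with the 10x 3′ chemistry. The authors deposited whole-number UMI counts for each gene in each barcode, made with Cell Ranger on mm10 and not normalized. The labels name Cell Ranger 3.0.0, the file headers a later version; whether intron reads or strand were used is not given in the sources used here. The ambient RNA correction and doublet removal of the study are not in these counts.

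Cells needed 500 genes, 1000 UMIs and under 30% mitochondrial UMIs, and the 5.4% of cells per library with the highest doublet scores were dropped. Cells were scaled to 10000 UMIs, and 2000 variable genes (never the 55 members), 30 principal components, 20 neighbours and Leiden resolution 1.2 gave clusters (scanpy 1.11.5), named from fixed markers. UMIs were summed per library and class with at least 10 cells and tested with edgeR 4.0.16 (R 4.3.3; low-count filter, TMM, quasi-likelihood, Benjamini-Hochberg over all genes tested, called at adjusted p under 0.05). DESeq2 1.42.0, used in the study, was an alternative. Folds and tests are on the TMM scale, CPM on library totals. In simulated T against UC data the test called 63, 49 and 72% of 2-fold changes in spermatogonia, spermatocytes and spermatids. Replicate numbers did not pair samples (correlations of deviations -0.448 to 0.632).

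The members and lists were chosen with earlier results of these data known. Named members were U2af1, U2af2 and U2af1l4, the 10 higher and 10 lower with the smallest adjusted p in T against UC spermatids (5 and 5 in other classes and in R against UC spermatids and spermatozoa), and those past the study thresholds; others named were chosen after their values were seen. Matching drew equal cells per library in each of 10 pseudotime bins. Gene positions are from GENCODE vM21, promoters from RefSeq GRCm38.p6.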

Additional observations from a re-analysis of the deposited data

Results flagged for a closer look

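For 6 members the change from UC to T differed between spermatid-like and spermatocyte-like cells by the interaction test over all genes (edgeR, adjusted p under 0.05). On the log2 scale, as the change in spermatids minus that in spermatocytes, the difference was 1.49 for U2af1, 1.49 for Sf3b6, -1.24 for Srsf6, -0.90 for Srsf1, -0.76 for Srsf11 and -0.54 for Snrpd2. The calls of all 6 ended without T 1, T 2, T 3 or UC 3, and with cells matched by pseudotime U2af1 was the member still called.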

How the results depend on the processing

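The counts of members called kept within 1.5 times their main value, or moved, as follows. Size factors of DESeq2 in place of TMM changed none of 15 counts by that much. The share of UMIs from members, T minus UC, moved to -0.167 percentage points in spermatogonia at 2000 UMIs per cell and to 0.0457 in spermatids with matched cells. At 2000 UMIs per cell the count became 1 for T against UC and 3 for T against VC-T in spermatogonia. It became 3 for R against UC and 0 for R against VC-R in spermatids. Of all genes 13.1, 15.8, 15.3 and 5.91% were called there, in that order. With matched cells it became 9 and 6 for T against UC and VC-T in spermatids. It became 0, 2 and 14 for R against UC in spermatogonia, spermatocytes and spermatids, and 1 for the difference between stages. In the same order, 21.1, 12.1, 1.14, 0.702, 36.6 and 1.39% of all genes were called. With no low-count filter it became 2 for T against UC in spermatocytes, 2 for T against VC-T in spermatogonia, 1 for R against VC-R in spermatozoa and 11 for the difference between stages; this setting moved the median of all genes in R spermatids by 0.23 against UC and 0.24 against VC-R. With library totals it became 0 and 7 in spermatocytes (T against UC and VC-T) and 12 for the difference between stages. The shares of all genes called were then 2.76, 7.6 and 7.23%. With doublets kept it became 1 for T against VC-T and 1 for R against UC in spermatogonia. DESeq2 called 12 in R against UC spermatocytes, and 26 and 22 in T against UC and VC-T spermatids. It called 4.47, 36.9 and 31.4% of all genes there. With all groups in one fit it was 2 for T against UC spermatocytes, 0 for R against UC spermatogonia and 0 for R against UC spermatozoa. VC-T 1 kept gave 0 for T against VC-T in spermatocytes and in spermatids, where 0.655 and 0% of all genes were called. The low-UMI clusters left out gave 0 for R against UC and R against VC-R in spermatids, where 1.17 and 0% were. The cause of these moves was not tested. With the replicate block, which the data do not support as a pairing, 2 were called for T against UC spermatocytes and 1 for R against VC-R spermatozoa. For T against UC and VC-T spermatids 35 and 22 were called. Of all genes 7.83, 0.41, 48.7 and 34.2% were called, in that order, and 3 of 46 named members lost their call. Shares of all genes are not given here for the settings on low-count filter, doublets, all groups in one fit and 1 library left out. Leaving out 1 library gave 0 to 2 members for T against UC spermatocytes, 0 to 2, 0 to 6 and 15 to 34 for T against VC-T in spermatogonia, spermatocytes and spermatids (15 without T 2, 0 without VC-T 3), 0 to 5, 0 to 6, 11 to 27 and 0 to 2 for R against UC in the 4 classes, 0 to 4, 9 to 26 and 0 to 4 for R against VC-R in spermatogonia, spermatids and spermatozoa, and 0 to 9 for the difference between stages. Directions turned for U2af2 in T against UC spermatids, which was never called (-0.146 without T 1 and -0.246 without UC 2, the lowest, against 0.301 without UC 3, the highest), for Srsf6 (0.21), Srsf11 (0.0826), Srsf2 (0.0626) and the stage difference of Srsf6 (0.13) with matched cells, for Hnrnpf (0.057) with library totals, and for Hnrnpm in R against UC (-0.0659) without the low-UMI clusters. Depth limits members at a few CPM in spermatids, such as Sf3b3, Hnrnpl and Srsf12, and in spermatogonia, with as few as 60 cells in a library.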
